A study of Rattus norvegicus with 6 samples.

Results

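The genes described here were the AP-1 subunit genes Fos, Fosb, Fosl1, Fosl2, Jun, Junb and Jund and the stress and serum response genes Atf3 and Egr1, chosen by their symbols, 9 of the 18420 genes in the deposited table. Each symbol matched 1 row, and all 9 genes passed the filter on low counts, with 13250 genes in all. The libraries came from wild-type primary chondrocytes of male Sprague-Dawley rats. In the TNF-α group (n = 3), the cells received TNF-α at 10 ng/mL for 6 h. In the TNF-α+NFL group (n = 3), the same 6 h of TNF-α was followed by Nanofat lysate (NFL), the supernatant of freeze-thawed fat stromal cells, for another 24 h. Every library analysed here was therefore exposed to TNF-α, and the untreated group of the study was not analysed here. By these treatment times, harvest came at 6 h without NFL and at 30 h with it, although the study does not state a harvest time. On these times, NFL and the time of harvest cannot be told apart. The study's methods describe cells of the third passage from knees and hips, whose cultures were divided at random among the treatments. The study calls the libraries of a group independent biological replicates, without naming separate animals, so the p-values measure the spread between these cultures. All directions follow the deposited labels. The study's own supplementary list of changed genes runs in the opposite order for the treated groups. Of the genes that the study also assayed singly, Mmp13 passed an adjusted p of 0.05 here (edgeR, log2 fold change -0.31). It passed in 1 of the 6 fits that left out 1 library and not with the replicate number as a block. Col2a1 (0.23), Acan (0.090), Sox9 (0.049), Mmp3 (-0.14) and Adamts5 (-0.17) did not pass it. As labelled, Mmp13 and these genes ran as the study describes for NFL, whereas Il6 (0.061), which did not pass either, ran the other way. Others it assayed are not given here. Some of its assays came after a longer treatment or measured protein. Which order is right was not tested, and each direction belongs to the libraries as labelled.

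AP-1 is a dimeric transcription factor, formed by a Jun protein with another Jun, Fos or ATF protein through a leucine zipper. Immediate early genes such as Fos and Egr1 are transcribed within minutes of a stimulus without new protein synthesis, through kinases that act on factors already bound at their promoters, and their RNA is short-lived. In chondrocytes, TNF-α activates AP-1 through the JNK and p38 kinases, and AP-1 is known to drive collagenase and aggrecanase genes.

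The deposited estimated counts summed to between 19344893 and 19725135 per library, of which the 9 genes held 0.0962% to 0.103%. TNF-α replicate 1 stood at one end of the first principal component (26.1% of the variance) and TNF-α replicate 3 at the other. The chondrocyte markers Sox9 (3.93 to 5.07 TPM), Col2a1 (7.10 to 9.54 TPM) and Acan (4.47 to 6.12 TPM) were low in every library beside the fibroblast collagen gene Col1a1 (1123 to 1401 TPM). The 18 genes of the chondrocyte list summed to 1407 to 1841 TPM in the TNF-α group and 1547 to 1704 TPM in the TNF-α+NFL group, most of it Prg4 (948 to 1329 TPM) and Col11a1 (404 to 533 TPM), and no other gene of the list exceeded 10.65 TPM. TPM is a level scaled for transcript length. The endothelial list summed to at most 0.380 TPM and the blood list to at most 0.710 TPM in any library, with the endothelial receptor gene Kdr at 0 throughout. The adipocyte list summed to between 33.35 and 34.9 TPM in the TNF-α group and between 34.95 and 40.4 TPM in the TNF-α+NFL group, most of it Fabp4. The macrophage list was at 105 to 115 TPM and 98.4 to 101 TPM, most of it Cd68 and Cd14, while the leukocyte gene Ptprc reached at most 7 counts and the macrophage receptor gene Csf1r at most 40 counts. The part of these cell types in the values below was not tested.

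None of the 9 genes passed an adjusted p of 0.05 between the groups, where 0.611% of the tested genes did (edgeR's quasi-likelihood test, two-sided, Benjamini-Hochberg adjustment over 13250 genes). At an unadjusted p under 0.05 there were 3 of the 9, Fosl1 and Jun at lower and Fos at higher values with NFL, against 11.1% of all tested genes (5.66% higher and 5.45% lower). Leaving out 1 library moved this count to between 1, without TNF-α+NFL replicate 3, and 5, without TNF-α replicate 1, where 8.41% and 20.3% of the tested genes were at that level. It was 2 when TNF-α replicate 3 or TNF-α+NFL replicate 1 was left out, where 9.35% and 7.72% of the tested genes were at that level. Fosl1 was among them in each of these fits, whereas Fos was lost without TNF-α replicate 3 or TNF-α+NFL replicate 3, and Jun without TNF-α+NFL replicate 1 or 3. By limma-voom no member passed an adjusted p of 0.05, where 0.634% of the tested genes did. By that test 3 members had an unadjusted p under 0.05, against 11.0% of all tested genes. The DESeq2 Wald test gave no adjusted p for 3 members, Fos, Fosb and Atf3, and called none of the other 6. It gave an adjusted p to 7085 genes and called 138 genes, 1.04% of the 13250 tested. At an unadjusted p under 0.05 it had 1 member, Fosl1, against 5.93% of all tested genes. The libraries of the groups did not overlap in 4 of the 9 genes, Fos, Fosl1, Jun and Atf3, against 16.8% of all tested genes. All 9 fold changes lay within 1.19-fold in either direction. In bulk samples, fewer cells that express a gene and less RNA per cell cannot be told apart.

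**Figure D1:**
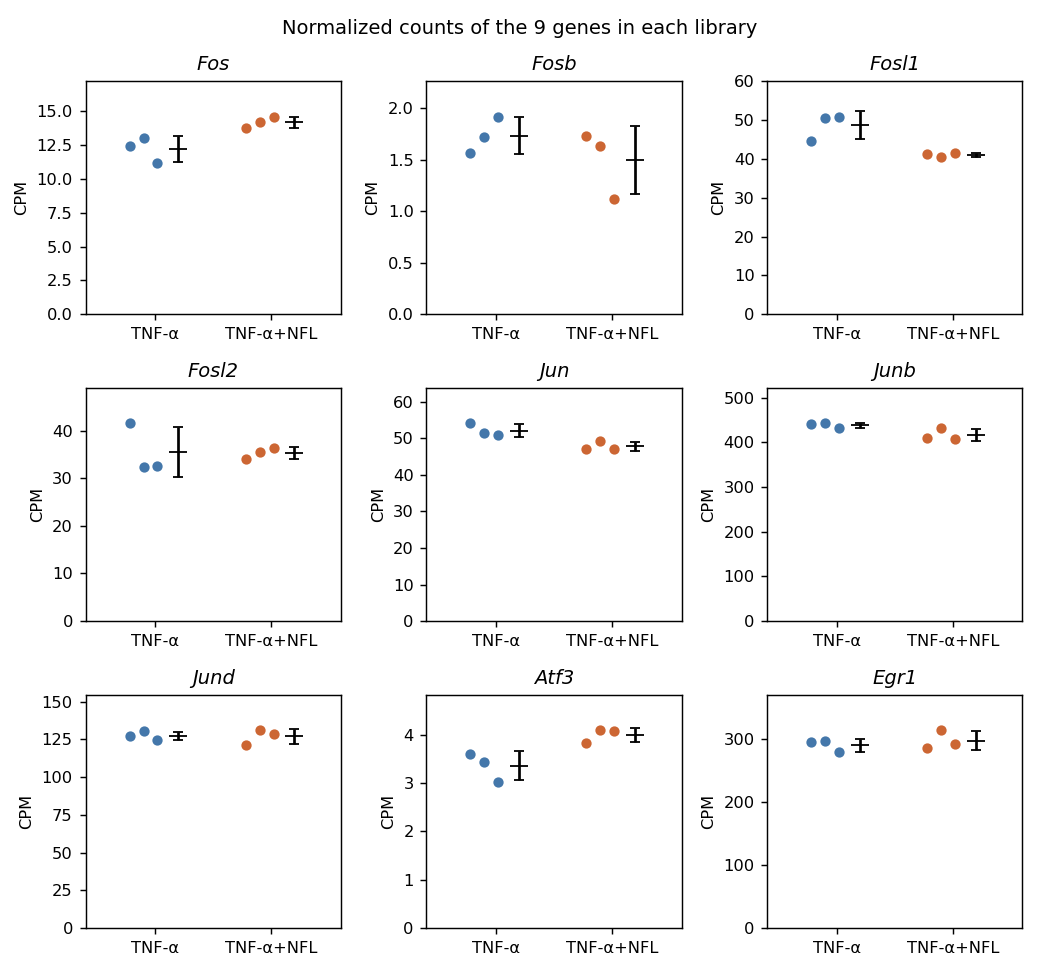
Normalized counts (CPM, scaled to library size after TMM normalization, axes from 0) of each gene in each library, with the TNF-α group in blue and the TNF-α+NFL group in orange; the points of a group stand in replicate order, and the bar is the mean ± SD (n = 3). Fosl1 sits at 44.6 to 50.9 in the TNF-α libraries and at 40.5 to 41.5 in the others, whereas the groups overlap in Egr1, Jund and Junb.

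Among the Fos family, Fosl1, which encodes the AP-1 subunit Fra-1 that lacks the transactivation domain of c-Fos, had the smallest p of the 9 genes and ranked 135 among all tested genes. Its CPM, a count scaled to library size, was 44.6, 50.7 and 50.9 in TNF-α replicates 1, 2 and 3 and 41.2, 40.5 and 41.5 with NFL. Every TNF-α library lay above every TNF-α+NFL library, and the lowest of the TNF-α libraries was replicate 1. The log2 fold change was -0.25 (standard error 0.057, 95% confidence interval -0.37 to -0.12, edgeR adjusted p = 0.080), a change of -15.8%. The exact permutation test (two-sided) gave p = 0.10, the smallest that 3 libraries against 3 allow. Leaving out TNF-α replicate 1 gave Fosl1 -0.31 on the log2 scale with an adjusted p of 0.00032, where 6.94% of the tested genes were called, and without a filter on low counts the adjusted p was 0.039, where 0.734% were. Over all 13 alternatives it ran from 0.00032 to 0.41.

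Fos, which encodes the prototype c-Fos and is usually the most transient of the family, stood at a CPM of 12.5, 13.0 and 11.2 in the TNF-α libraries and 13.8, 14.2 and 14.6 in the TNF-α+NFL libraries. Here the TNF-α+NFL libraries were the higher ones, again with no overlap. The log2 fold change was 0.22 (standard error 0.080 and 95% confidence interval 0.044 to 0.39, adjusted p = 0.31 from edgeR). Each library held between 221 and 287 counts of Fos, for which counting alone gives a coefficient of variation of 6.22%. The replicates varied by 7.70% in the TNF-α group and by 2.90% in the TNF-α+NFL group.

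Fosl2, which encodes Fra-2, was at a CPM of 41.5, 32.4 and 32.5 in the TNF-α libraries and at 34.0, 35.4 and 36.4 in the TNF-α+NFL libraries. TNF-α replicate 1 lay above all other libraries, and the other TNF-α replicates lay below all of them. With all libraries the log2 fold change was -0.0081 (95% confidence interval -0.22 to 0.20, adjusted p = 0.99 from edgeR), and without TNF-α replicate 1 it was 0.12 (adjusted p = 0.22 from edgeR, the smallest of the 13 alternatives). Thus TNF-α replicate 1 had the highest Fosl2 and the lowest Fosl1 of its group.

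Fosb, which encodes a subunit best known from neurons, was barely detected, with 22 to 38 counts per library. Its CPM was 1.57, 1.72 and 1.92 in the TNF-α libraries and 1.74, 1.64 and 1.12 in the TNF-α+NFL libraries, so that the groups overlapped and the lowest value was that of TNF-α+NFL replicate 3. The 95% confidence interval of the change, from -38.5% to 20.95%, was the widest of the 9, so a difference within it was not detectable at this depth.

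In the Jun family, Jun, which encodes c-Jun, the target of the JNK kinases, was at a CPM of 54.1, 51.4 and 50.9 in the TNF-α libraries and 47.2, 49.2 and 46.9 in the TNF-α+NFL libraries. The groups did not overlap, by a margin narrower than the range within either group. On the log2 scale Jun differed by -0.12 (standard error 0.048, 95% confidence interval -0.23 to -0.021, adjusted p = 0.33 from edgeR), a change of -8.29%.

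Junb, which encodes a Jun protein with weaker activation and often opposes c-Jun, had 8004 to 8744 counts per library. It stood at a CPM of 441, 443 and 432 in the TNF-α libraries and 410, 432 and 408 in the TNF-α+NFL libraries. The groups overlapped through TNF-α replicate 3 and TNF-α+NFL replicate 2 alone. The log2 fold change was -0.075 (95% confidence interval -0.16 to 0.0077, adjusted p = 0.52 from edgeR). As a change, the interval ran from -10.3% to 0.533%.

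Jund, which encodes the constitutive Jun protein, was at a CPM of 127.3, 130.3 and 125 in the TNF-α libraries and 121, 131 and 129 in the TNF-α+NFL libraries. The lowest and the highest value were both among the TNF-α+NFL libraries. The log2 fold change of -0.00595 had a 95% confidence interval of -0.098 to 0.086, or a change of -6.54% to 6.12%.

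Of the genes outside the Fos and Jun families, Egr1, a zinc finger factor that is the standard readout of serum and growth factor signaling, also overlapped between the groups. Its CPM was 296.1, 296.5 and 279 in the TNF-α libraries and 287, 314 and 292 in the TNF-α+NFL libraries. The highest value was that of TNF-α+NFL replicate 2. NFL came with a log2 fold change of 0.036 (edgeR adjusted p = 0.84), and the 95% confidence interval of the change ran from -4.08% to 9.57%.

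Atf3, a stress-induced bZIP repressor that pairs with Jun proteins, was at a CPM of 3.61, 3.44 and 3.03 in the TNF-α libraries and 3.83, 4.10 and 4.07 in the TNF-α+NFL libraries. The groups did not overlap, but with 60.5 to 80.3 estimated counts per library the interval was wide. The log2 fold change was 0.25 (standard error 0.14, 95% confidence interval -0.060 to 0.56, adjusted p = 0.57 from edgeR). Its estimated counts were fractional, which an estimate gives where reads are divided among sequences.

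**Figure D2:**
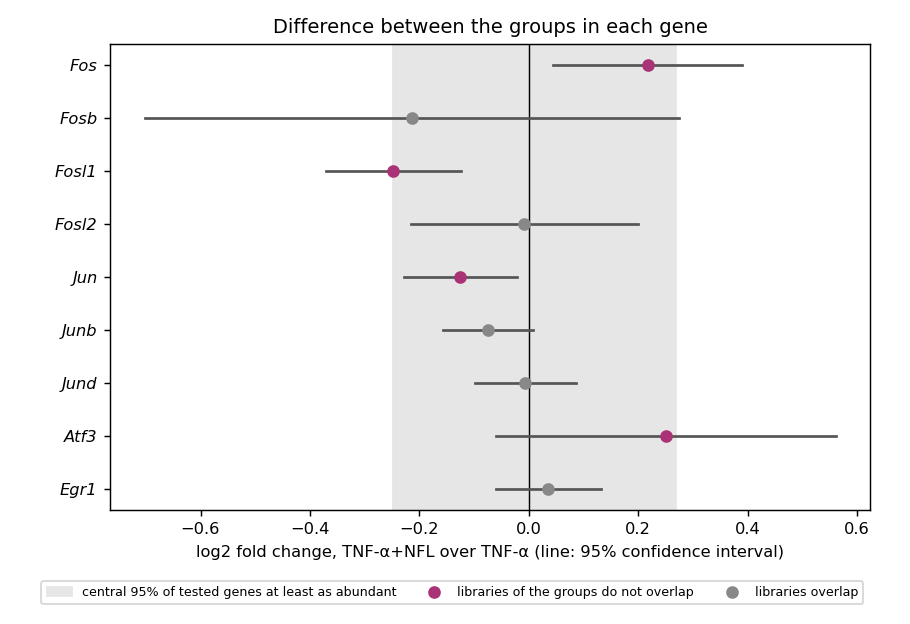
Log2 fold change of each gene (TNF-α+NFL over TNF-α) with its 95% confidence interval as a line; the grey band, from -0.25 to 0.27, holds the central 95% of the tested genes whose mean CPM was at least that of the least abundant member. All 9 points lie inside the band, with Fosl1 at its edge, and the 4 genes whose libraries did not overlap are in purple.

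Leaving out 1 library moved the log2 fold change most in Fosb, from -0.33 to -0.041, and in Fosl2, from -0.065 to 0.12. The log2 fold changes of Fos, Fosb, Fosl1, Jun, Junb and Atf3 had their original sign in each of the 13 alternative fits, which share libraries with each other. Those of Fosl2, Jund and Egr1, which were near 0, changed sign in 4, 2 and 1 of them.

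**Figure D3:**
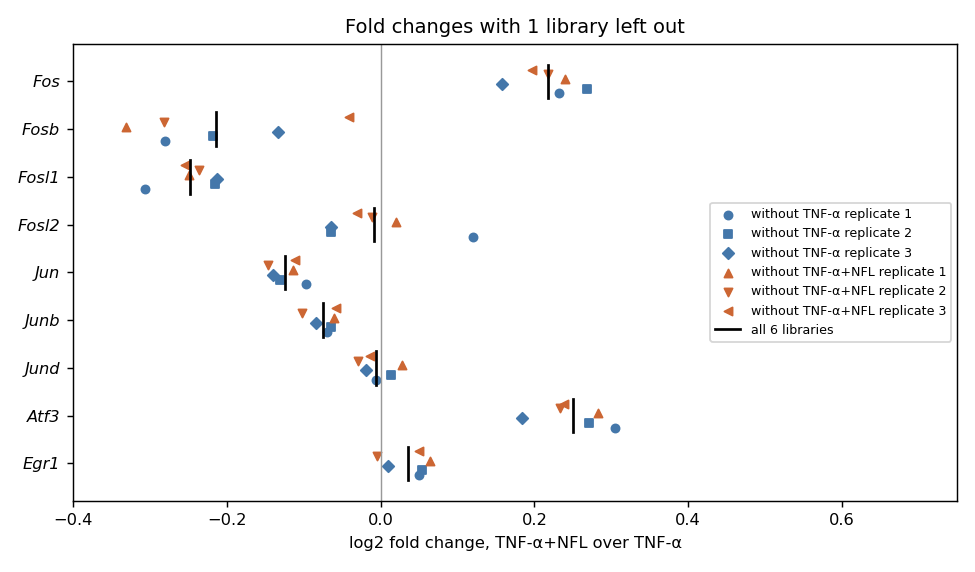
Log2 fold change of each gene when 1 library was left out, with blue symbols for TNF-α libraries, orange symbols for TNF-α+NFL libraries and a black line for all 6. The blue circle, without TNF-α replicate 1, gives the lowest value of Fosl1 (-0.31) and the highest of Fosl2 (0.12).

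Per transcript length, the 9 genes spanned more than 2 orders of magnitude, and their order was the same in every library. Junb was the highest at 455 to 495 TPM over the 6 libraries, above 98.2% of all genes in the table. Egr1 followed at 353 to 416 TPM and Jund at 143 to 157 TPM. The Fra genes came next, Fosl2 at 65.35 to 86.8 TPM and Fosl1 at 49.1 to 59.2 TPM. Jun was at 29.96 to 34.7 TPM, Fos at 13.55 to 18.4 TPM, Atf3 at 3.11 to 4.36 TPM and Fosb at 0.68 to 1.13 TPM. No neighbours in this order overlapped over the 6 libraries. Jun and Fos, the founding members of both families, thus lay below their relatives Junb, Jund, Fosl2 and Fosl1.

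**Figure D4:**
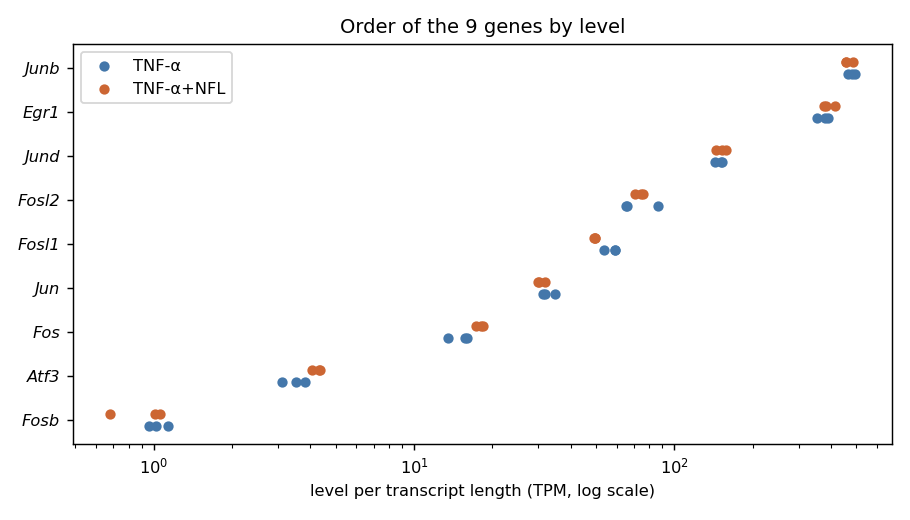
Level of each gene per transcript length (TPM, log axis) in each library, with the genes ordered from the highest to the lowest. The ranges of neighbouring genes do not overlap, from Junb at 455 to 495 TPM down to Fosb at 0.68 to 1.13 TPM.

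Within the Jun family, Junb took 72.6% ± 0.10 of the summed TPM without NFL and 72.0% ± 0.513 with it (SD, n = 3 each). Jund took 22.5% ± 0.208 and 23.3% ± 0.557, and Jun 4.93% ± 0.143 and 4.72% ± 0.0436 (SD, n = 3 each). Within the Fos family, Fosl2 took 46.3% to 55.2% in the TNF-α libraries and 51.0% to 52.4% in the others, where the top value was that of TNF-α replicate 1. Fosl1 took 34.2% to 42.4% and 34.4% to 35.7%, and Fos 9.75% to 11.2% and 12.5% to 12.7%. The shares of Fos, Jun, Junb and Jund within their families therefore did not overlap between the groups, whereas that of Fosl1 did, through TNF-α replicate 1. Shares of a family depend on each other, so these are not separate results, and they have no counterpart over all genes. Junb ran from 72.5% to 72.7% without NFL and from 71.4% to 72.4% with it. The CPM of Junb and Jund overlapped between the groups. The ratio of Fosl1 to Fos was 3.42, 3.72 and 4.35 in the TNF-α libraries and 2.85, 2.72 and 2.71 in the TNF-α+NFL libraries. The summed Jun family stood at 4.34 to 4.68 times the summed Fos family in the TNF-α group and at 4.41 to 4.75 times in the TNF-α+NFL group, with overlap. These shares and ratios were chosen with the values known and were not tested.

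Promoter sequences came from a table made from RefSeq (GRCr8), in which 6 of the 9 genes were matched by gene identifier, and those of Fos, Jun and Atf3 were not analysed here. Shown are the 250 bases before the annotated start, 5′ to 3′, for the 3 genes with the highest level and for Fosl1, which had the smallest p. The letters searched on both strands were the AP-1 element TGACTCA, the cyclic AMP response element TGACGTCA, which ATF and CREB proteins bind, its shorter core TGACG, the TATA box TATAAA and the CArG box, which serum response factor binds. Matches are in capitals, and the full cyclic AMP response element holds that core on both strands.
Junb, chr19:40080876-40081125 on the plus strand: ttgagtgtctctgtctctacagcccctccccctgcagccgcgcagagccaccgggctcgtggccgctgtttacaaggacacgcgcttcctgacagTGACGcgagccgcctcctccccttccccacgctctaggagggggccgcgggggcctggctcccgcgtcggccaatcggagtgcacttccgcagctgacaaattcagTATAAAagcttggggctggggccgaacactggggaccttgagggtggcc
Egr1, chr18:26736828-26737077 on the plus strand: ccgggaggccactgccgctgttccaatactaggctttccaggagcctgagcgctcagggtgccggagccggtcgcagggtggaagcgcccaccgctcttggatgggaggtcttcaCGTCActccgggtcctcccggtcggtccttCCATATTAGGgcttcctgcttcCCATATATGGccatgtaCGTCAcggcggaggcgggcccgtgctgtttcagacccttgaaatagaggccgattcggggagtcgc
Jund, chr16:18769772-18770021 on the minus strand: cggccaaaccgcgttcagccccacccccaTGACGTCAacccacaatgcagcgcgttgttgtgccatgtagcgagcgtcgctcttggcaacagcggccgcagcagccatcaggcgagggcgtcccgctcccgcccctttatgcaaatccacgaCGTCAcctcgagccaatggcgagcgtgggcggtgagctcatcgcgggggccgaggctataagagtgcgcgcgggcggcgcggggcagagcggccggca
Fosl1, chr1:212183635-212183884 on the plus strand: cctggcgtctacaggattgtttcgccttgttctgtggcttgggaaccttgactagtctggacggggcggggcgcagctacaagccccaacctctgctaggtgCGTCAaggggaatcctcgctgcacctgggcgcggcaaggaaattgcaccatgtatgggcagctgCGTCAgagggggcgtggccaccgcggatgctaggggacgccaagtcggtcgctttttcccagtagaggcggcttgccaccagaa

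Egr1 held 2 CArG boxes, beginning 105 and 83 bases before the start, where 1.5% of all 33469 promoters of this length held any, and 2 cores at 135 and 66 bases. Jund held the cyclic AMP response element 221 bases before its start, found in 1.59% of promoters, and a separate core at 98 bases. Junb held a TATA box at 49 bases (12.9% of promoters) and a core at 155 bases (18.2% of promoters), and Fosl1 held cores at 148 and 84 bases. Of the other matched genes, Fosb held only a TATAAA match, on the reverse strand, and Fosl2 none of these letters. The AP-1 element, in 4.05% of promoters, was in none of the 6 windows. These matches describe letters and were not tested for binding.

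Other genes of the pathway were set beside the 9 as lists, chosen with earlier results of these data known. Of 44 tested other immediate early genes, 1 was higher and 1 was lower at an adjusted p under 0.05 (edgeR), 13 and 5 were so at an unadjusted p under 0.05, and the groups did not overlap in 19. Over all tested genes the shares were 0.408% and 0.204% at the adjusted p, 5.66% and 5.45% at the unadjusted p, and 16.8% without overlap. The median log2 fold change of the list was 0.020, against -0.0035 for all tested genes. Csrnp1, which encodes a nuclear protein induced by AXIN1, was higher, at a CPM of 15.3, 13.5 and 14.6 in the TNF-α libraries and 19.6, 19.05 and 17.9 in the TNF-α+NFL libraries (log2 fold change 0.38 with a standard error of 0.074 and an edgeR adjusted p of 0.036). Ptgs2, which encodes the prostaglandin synthase COX-2, was lower, at 74.4, 67.3 and 71.95 against 57.2, 59.1 and 62.3 (log2 fold change -0.26 with a standard error of 0.051 and an edgeR adjusted p of 0.039). In both genes the groups did not overlap, and both were past 0.05 in 1 of the 6 fits that left out 1 library, that without TNF-α replicate 1. Next by p came Ctgf, which encodes a matricellular growth factor, with a log2 fold change of 0.16 (adjusted p = 0.075 from edgeR). The relatives of Egr1 were low, with Egr2 at 7.67 to 10.9 TPM, Egr3 at 0.09 to 0.64 TPM and Egr4 at no more than 1 count in any library.

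Lists of regulators held no gene past an adjusted p of 0.05 (edgeR), which 0.611% of all tested genes passed. Their counts at an unadjusted p stand against the same 5.66% higher and 5.45% lower over all tested genes. The lists overlap, and Srf and Zfp36l2 are also among the 13 immediate early genes above. Of 24 tested AP-1 partners and small Maf genes, 3 were higher and 3 were lower at an unadjusted p under 0.05, with a median log2 fold change of -0.0049. The smallest p was that of Nfe2l2, which encodes the antioxidant regulator NRF2 (log2 fold change -0.13, adjusted p = 0.19 from edgeR). Jdp2, which encodes a repressor that dimerizes with Jun proteins, had 0.15 and Nfe2l1 had 0.10. Of 30 tested upstream MAP kinase and transcription factor genes, 1 was higher and 1 lower at that level, with a median of 0.0034. These were Srf (log2 fold change 0.11), the factor that binds CArG boxes, and Map2k2 (-0.13), which encodes the ERK kinase MEK2. Next by p was Mapk7, which encodes ERK5, with a log2 fold change of -0.24 (adjusted p = 0.51 from edgeR). Of 21 tested feedback genes, 1 was higher and 1 lower, with a median of 0.040. These were Zfp36l2 (0.75, at 0.32 to 0.82 TPM) and the ERK inhibitor gene Spry2 (-0.13). Dusp1, which encodes the phosphatase that switches off p38 and JNK, had a log2 fold change of 0.081 (adjusted p = 0.56 from edgeR).

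The last list of the pathway held genes that AP-1 is known to regulate. It was chosen with earlier results of these data known, so its counts are descriptions. Of 30 tested, 2 were higher and 4 were lower at an adjusted p under 0.05 (edgeR), 3 and 11 were so at an unadjusted p under 0.05, and 23 had a negative log2 fold change, with a median of -0.096. Over all tested genes 0.408% and 0.204% were called, 5.66% and 5.45% were at the unadjusted p, and 51.8% had a negative log2 fold change. Among the higher genes was Tnc, which encodes the matrix protein tenascin C (log2 fold change 0.40, adjusted p = 0.00091). Lower were Plau (-0.33, adjusted p = 0.0056), which encodes urokinase, Mmp13 (-0.31, adjusted p = 0.017), which encodes the main collagenase of cartilage, Hmga1 (-0.22, adjusted p = 0.034), which encodes a chromatin protein, and Ptgs2. Mmp13 stood at a CPM of 341, 355 and 313 in the TNF-α libraries and 280, 259 and 278 in the TNF-α+NFL libraries, and each TNF-α library was above each of the others. With 1 library left out, Tnc stayed past 0.05 in 6 of 6 fits, Plau in 4, and Mmp13 (that without TNF-α replicate 3), Hmga1 and Ptgs2 (that without TNF-α replicate 1) in 1. With the replicate number as a block, only Tnc and Plau of the 7 listed genes stayed past it. Ptgs2 is in both this list and that of the immediate early genes, and these genes are also regulated by other factors.

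The 12 heat shock genes summed to 3269 to 3310 TPM in the TNF-α libraries and 3246 to 3383 TPM in the TNF-α+NFL libraries. None passed an adjusted p of 0.05 (edgeR), which 0.611% of all tested genes passed. At an unadjusted p under 0.05, 2 were higher and 1 was lower (11.1% of all tested genes in both directions). Their median log2 fold change was -0.0041. The smallest p values were those of Hspb1 (log2 fold change 0.14), Bag3 (-0.14) and Hsp90aa1 (0.10).

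**Figure D5:**
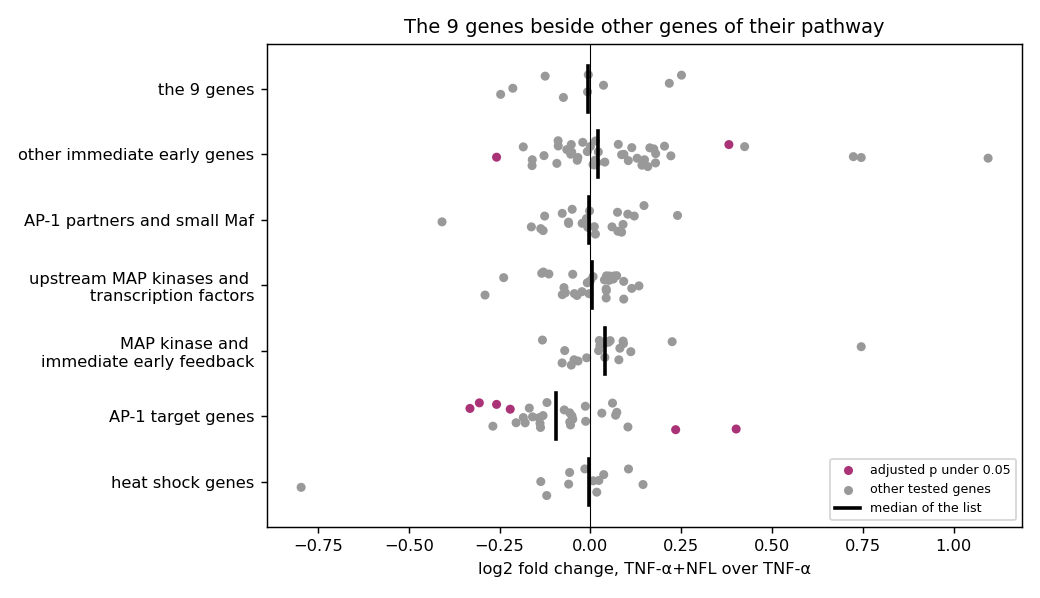
Log2 fold change (TNF-α+NFL over TNF-α) of each tested gene of each list, with genes past an adjusted p of 0.05 in purple and the median of the list as a black bar; the vertical scatter within a list has no meaning. The medians run from -0.096 for the AP-1 target genes to 0.040 for the feedback genes, and the 9 genes lie between -0.25 and 0.25.

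The values of the 9 genes did not all run together over the 6 libraries. Fos and Atf3 followed each other most closely of all pairs (Pearson correlation of log2 CPM 0.956), followed by Jun and Junb (0.908), whereas Fosl1 ran against Atf3 (-0.920) and Fos (-0.808). The pattern of Fos was most like those of Rcan2 (0.985), Slc4a4 (0.983) and RGD1308601 (0.980) among 9094 other genes with a mean CPM of at least 10. That of Jun was most like those of Fut11 (0.987), Cyp4f6 (0.987) and Cxxc1 (0.986), and that of Egr1 most like those of Mau2 (0.982), Scyl3 (0.966) and Cpsf2 (0.965). Over the 6 libraries, 105, 101 and 56 of these genes reached more than 0.9 with Fos, Jun and Egr1. All points share the same libraries and treatments, and these correlations are descriptions.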

How the data were processed

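RNA of rat chondrocytes was sequenced in 3 libraries of the TNF-α group and 3 of the TNF-α+NFL group. For each gene the authors deposited an estimated count, often fractional and without normalization. The deposited FPKM and TPM values were scaled to transcript length and library by the authors. The submitters' processing notes name HISAT2 2.0.4, Bowtie2 2.2.5, RSEM 1.2.12 and the build Rnor_6.0, and the reads were single-end. The annotation is not given in the sources used here. Genes that share reads with similar copies are uncertain.

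Estimated counts were rounded and compared in R 4.3.3 by edgeR 4.0.16 (filterByExpr, TMM, robust quasi-likelihood, two-sided, Benjamini-Hochberg over 13250 genes). The F statistic of each fold change gave its standard error. The biological coefficient of variation was 6.39%. The function was tested on simulated data. Alternatives were other filters, DESeq2 1.42.0, its size factors, limma 3.58.1 (voom, and log2(FPKM + 1) with a pseudocount of 1), the replicate number as a block and each library left out.

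The members and lists were chosen with earlier results of these data known. Named are the 9 genes, listed genes past an adjusted p of 0.05, otherwise those of smallest p up to 3 a list (1 gene past it is not reported here), and the 3 genes most like Fos, Jun and Egr1. Egr2, Egr3, Egr4, Dusp1, Il6, Mmp3 and Adamts5 were named after their values were seen, and of the markers Kdr, Prg4, Col11a1, Fabp4, Cd68, Cd14, Ptprc and Csf1r.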

Additional observations from a re-analysis of the deposited data

How the results depend on the processing

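The number of genes called over all genes, 54 higher and 27 lower, became 84 and 48 with no filter on low counts, 88 and 50 with the DESeq2 Wald test, 3 and 3 with limma on log2(FPKM + 1), and 25 and 9 under a replicate block. With 1 library left out it ran from 5 to 460 higher and from 0 to 470 lower, with the highest numbers without TNF-α replicate 1 and the lowest without TNF-α+NFL replicate 1. The number of the 9 genes called was 0 in each direction except for 1 lower gene, Fosl1, with no filter, at a log2 fold change of -0.248, and in the range of 0 to 1 with 1 library left out. Leaving out a library moved Fosl1 between -0.31 and -0.21, Fosl2 between -0.065 and 0.12, Jund between -0.029 and 0.028 and Egr1 between -0.0042 and 0.064. Fosl2 was at 0.0020 with limma-voom and 0.0026 with limma on log2(FPKM + 1). Called listed genes, 3 higher and 4 lower, became 1 and 1 with the replicate block, 1 and 0 on FPKM, and 8 lower with the DESeq2 Wald test. They ran from 1 to 14 higher and from 0 to 17 lower with 1 library left out. The cause was not tested. Deviations from the group means correlated from -0.0237 to 0.10 between same-numbered libraries and from -0.104 to 0.0679 between the others. In each gene the deviations of a group sum to 0, so these overlapping ranges do not decide whether the numbers pair the samples. The main fit did not pair them, and the block changed no call among the 9 genes. Shares by FPKM equal those by TPM by construction and are no check. Depth limits Fosb and Atf3, the least abundant of the 9.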
